A study of Mus musculus with 4 samples.

Results

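Sterol and lipid handling genes were described across the immune cells of the mouse lung. The set was chosen by name and holds 32 of the 31053 genes in the deposited single-cell count matrices. It comprises 18 enzymes of sterol synthesis, 4 regulators of that pathway (Srebf1, Srebf2, Insig1 and Scap), the cholesterol exporters Abca1 and Abcg1, 5 enzymes of fatty acid synthesis (Acly, Acaca, Fasn, Scd1 and Scd2), and 3 genes of lipid uptake and storage (Lpl, Cd36 and Plin2). All 32 had unique molecular identifiers (UMIs, 1 per captured RNA molecule) in these cells.

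The 4 libraries came from C57BL/6 mice, with 1 library per group, and the number of mice in each library was not given in the sources used here. WT mice were Ift20 f/f, that is, they carried the loxP-flanked Ift20 allele without Cre. KO mice were Ift20 f/f CD4 cre, in which CD4-driven Cre deletes part of Ift20 in the T cell lineage, CD8 T cells included, so macrophages, monocytes, dendritic cells and B cells kept the gene. Both papain groups, Papain-WT and Papain-KO, received 25 µg papain, a protease allergen, into the nose on 3 consecutive days and again on day 14, and lungs were taken on day 15. DPBS-WT and DPBS-KO mice received the vehicle. Living leukocytes were sorted by CD45.2, and their RNA was read from the 3′ end of the RNA. With 1 library per group there is no replicate check on any difference between groups. Such differences are given as ratios with intervals that cover counting error only.

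Cholesterol is built from acetyl-CoA through mevalonate, squalene and lanosterol, and the enzymes of this chain are switched on together by SREBF2 (SREBP2) when the membranes of the endoplasmic reticulum run low in sterol. SCAP carries the SREBP proteins to the Golgi for activation, and INSIG1 holds them back. Excess cholesterol is exported by ABCA1 and ABCG1, whose genes are switched on by oxysterol receptors. Alveolar macrophages take up and break down the lipid-rich surfactant of the airspace and are known for high lipid uptake and export.

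The libraries held 5863 to 8552 barcodes and 53854420 to 75675956 UMIs, and 5421 to 7559 cells per library were kept. Cells were clustered without the 32 genes and named only from marker genes, so the classes are called alveolar macrophage-like, monocyte-like and so on. The alveolar macrophage-like class had 1419, 1171, 909 and 537 cells in the 4 libraries. Values are always given with WT before KO and with the 2 DPBS libraries before the 2 papain libraries. The monocyte-like class had 636, 567, 889 and 551 cells, the dendritic-like class 92, 87, 186 and 92, the B-like class 2225, 1460, 2087 and 1744, and the T-like class 2059, 1349, 1476 and 1389. Between 7 and 16 barcodes were shared by any 2 libraries. In T-like cells Ift20 measured 52.5, 20.3, 48.1 and 17.6 UMIs for each 1000000 UMIs of the class (CPM), and was lower in both KO libraries. In alveolar macrophage-like cells it measured 56.2, 57.6, 65.1 and 58.0 CPM. A 3′ tag lies outside the deleted exons, so this level is not a direct readout of the deletion. Levels below are CPM within a class, compared for 1 gene across classes and never between genes.

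Alveolar macrophage-like cells held the highest mean level over the 4 libraries for 21 of the 32 genes, and for 9 of these (Mvd, Hsd17b7, Dhcr7, Srebf1, Scap, Abcg1, Acly, Lpl and Plin2) no library of the next class reached into their range. Of the 10369 genes with at least 555 UMIs in the named classes, the total of the least counted of the 32, 25.4% were highest in alveolar macrophage-like cells and 10.8% were so without overlap. Dendritic-like cells were highest for 5 genes, of which Srebf2 alone had no overlap with the next class. T-like cells were highest for 2 and the B-like class for 1, Scd1. Interstitial macrophage-like, monocyte-like and neutrophil-like cells were each highest for 1. Shares over all genes were taken for alveolar macrophage-like cells only, so the counts of the other classes have no such comparison. Class contrasts were tested with edgeR on UMIs summed per library and class, with the library as a block and adjustment over 12742 genes, so the 4 libraries serve as the replicates of a class although they differ in genotype and treatment.

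**Figure D1:**
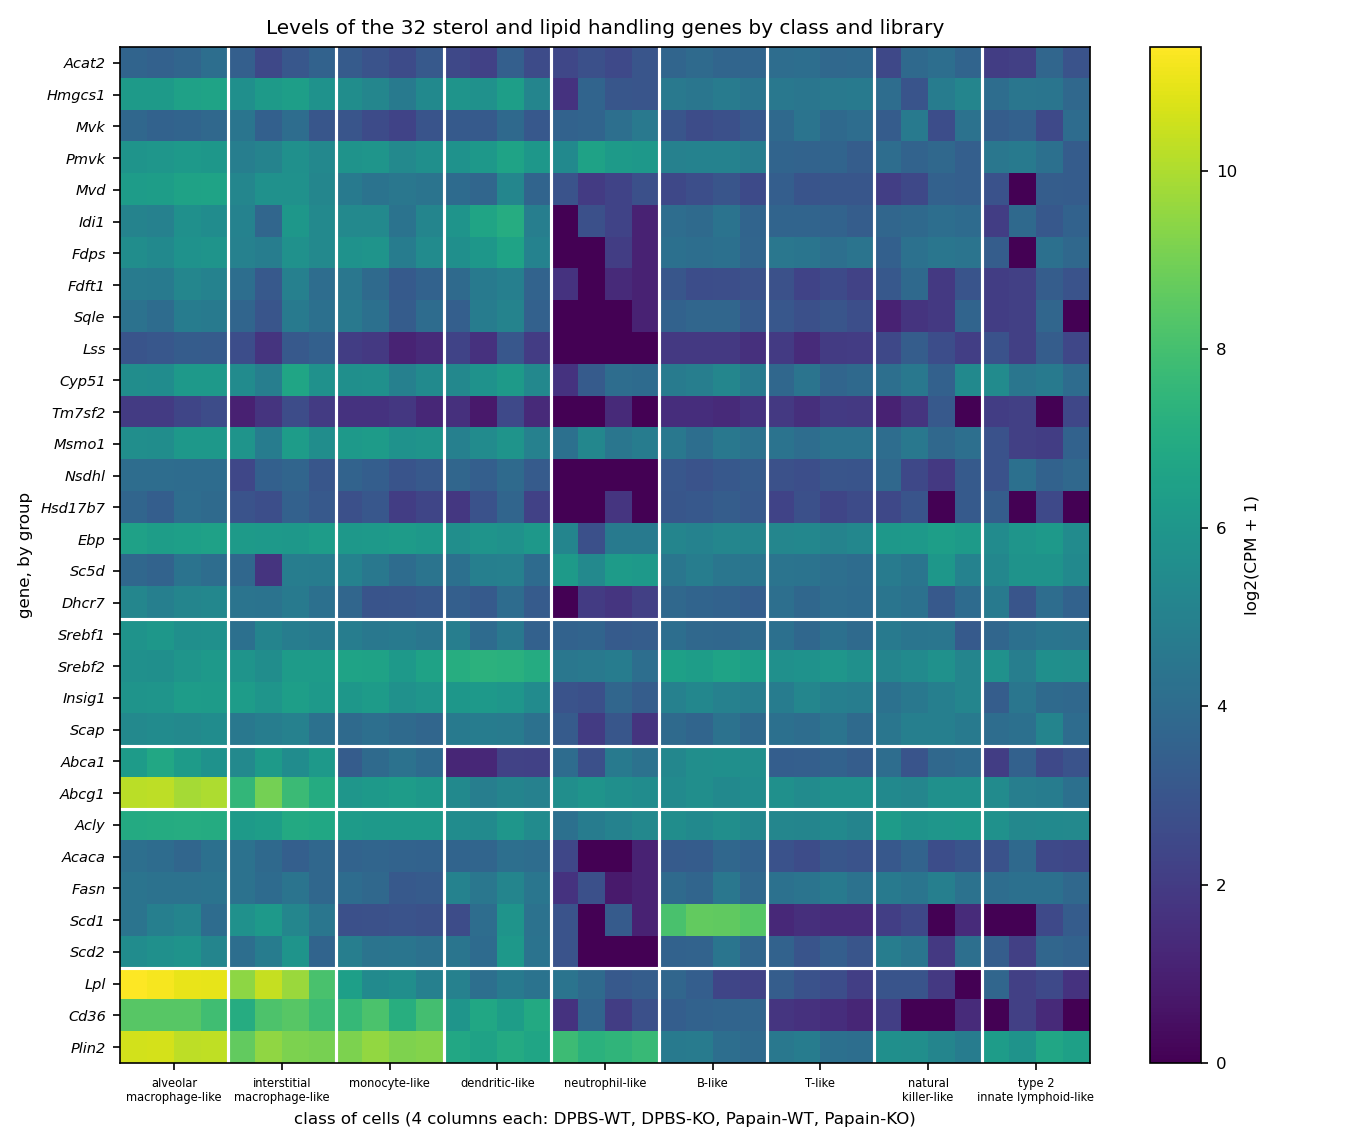
Level of each of the 32 genes (rows, ordered by group) in 9 classes of cells, with 1 column for each of the 4 libraries; colour is log2(CPM + 1). Lpl, Abcg1 and Plin2 stand out in alveolar macrophage-like cells, Scd1 in B-like cells, and neutrophil-like cells are dark for most sterol synthesis enzymes.

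Against monocyte-like cells, 20 of the 32 genes were higher in alveolar macrophage-like cells and 3 were lower. The 3 lower genes were 1 without the DPBS-WT library. Over all genes tested, 37.4% were higher and 34.1% lower, and the median log2 difference was 0.64 for the 32 genes and 0.04 for all genes. Against B-like cells 26 were higher and 3 lower, where 40.7% and 40.4% of all genes were called, with medians of 1.13 and 0.00.

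Lpl, the lipoprotein lipase that releases fatty acids from triglyceride, measured 2681, 2375, 2066 and 2015 CPM in alveolar macrophage-like cells. In monocyte-like cells it measured 85.4, 42.6, 48.9 and 30.4 CPM, far below all 4 alveolar values. The log2 difference was 5.34 (SE 0.17, adjusted p = 1.1e-16). Lpl was found in 95.7% to 100% of alveolar macrophage-like cells. It was also found in 2.18% to 5.35% of B-like cells and 2.23% to 5.0% of T-like cells, at median depths of 3883 to 4785.5 and 5638 to 6833 UMIs. Lymphocytes are not known for Lpl, and whether these low shares reflect expression in the cells was not tested. The level of free RNA was not measured. The Lpl gene lies at 68880491 to 68907448 on the plus strand of chromosome 8 (GRCm38, the assembly also called mm10).

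Plin2, which coats lipid droplets, measured 1569, 1601, 1235 and 1271 CPM in alveolar macrophage-like cells and 556.7, 748.9, 590.6 and 618.5 in monocyte-like cells (log2 difference 0.96, SE 0.11, adjusted p = 1.3e-07). Neutrophil-like cells held 222.8, 153.7, 175.5 and 205.3 CPM of it, dendritic-like cells 94.1 to 124.6, and B-like cells 14.5 to 25.8. The libraries of these 5 classes did not overlap, so the order of the levels was alveolar macrophage, monocyte, neutrophil, dendritic and B. Cd36, a scavenger receptor for oxidised lipoproteins and fatty acids, measured 339.5, 343.4, 344.3 and 236.6 CPM in alveolar macrophage-like cells and 197.8, 288.7, 139.0 and 250.4 in monocyte-like cells. Those 2 classes overlapped, and the difference did not pass (log2 difference 0.37, SE 0.17, adjusted p = 0.058). Within the monocytes Cd36 was uneven. The cluster with nonclassical markers such as Ace and Treml4 held 422.3, 577.2, 353.0 and 497.8 CPM, and the cluster with classical markers such as Ly6c2 and Ccr2 held 77.4, 113.3, 29.8 and 94.95.

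Abcg1, the exporter that loads cholesterol onto high-density lipoprotein, measured 1170, 1225, 927.4 and 1021 CPM in alveolar macrophage-like cells and 61.8 to 77.6 in monocyte-like cells (log2 difference 3.77, SE 0.099, adjusted p = 6.1e-18). Lymphocytes were near the monocytes, at 42.01 to 48.4 CPM in B-like and 43.6 to 52.0 CPM in T-like cells. Abca1, which exports cholesterol to lipid-poor apolipoprotein, had a different order. It measured 76.2, 111.8, 74.1 and 54.2 CPM in alveolar macrophage-like cells, 37.4, 48.6, 49.7 and 47.9 in B-like cells, 9.32 to 10.8 in T-like cells, 8.85 to 18.4 in monocyte-like cells and 1.30 to 3.74 in dendritic-like cells. B-like cells exceeded T-like cells by 2.04 on the log2 scale (SE 0.17, adjusted p = 8.7e-10), and dendritic-like cells fell below monocyte-like cells (log2 difference -2.34, SE 0.40, adjusted p = 4.0e-05).

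**Figure D2:**
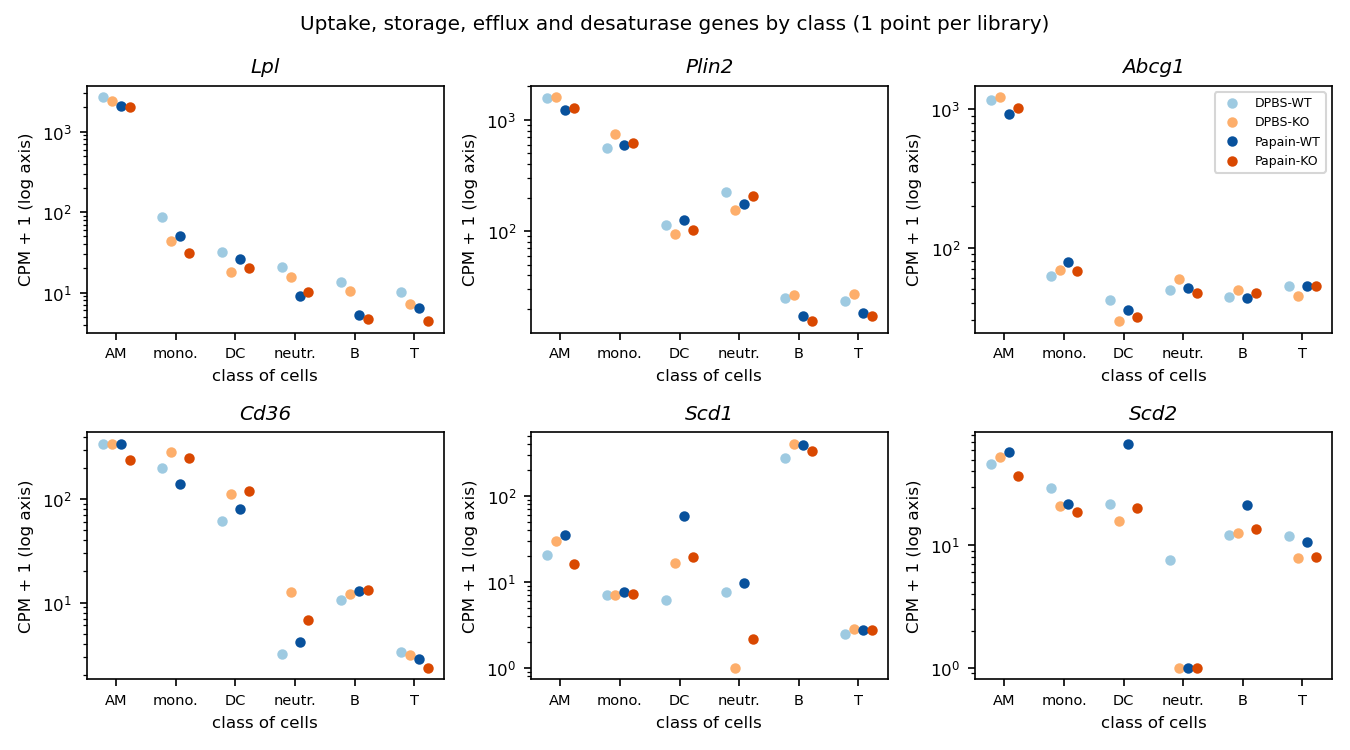
Level of 6 lipid genes in 6 classes of cells (AM, alveolar macrophage-like; mono., monocyte-like; DC, dendritic-like; neutr., neutrophil-like), with 1 point per library on a log axis of CPM + 1. Lpl, Plin2 and Abcg1 peak in AM, Scd1 peaks in B-like cells at 273.7 to 402.8 CPM, and Scd2 is highest in the dendritic-like cells of Papain-WT.

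Among the regulators, the genes did not share an order. Scap (40.7, 43.7, 39.8 and 45.5 CPM) and Srebf1 (56.4, 63.3, 49.6 and 51.1 CPM), which encodes the SREBP that drives mainly fatty acid synthesis, were highest in alveolar macrophage-like cells. Their log2 differences over monocyte-like cells were 1.35 and 1.01 (adjusted p = 9.9e-10 and 6.8e-08). Srebf2 went the other way. It measured 136.6, 158.4, 150.2 and 127.6 CPM in dendritic-like cells, 68.6 to 95.8 in monocyte-like cells, 79.7 to 96.4 in B-like cells and 49.95 to 70.0 in alveolar macrophage-like cells. Dendritic-like cells were above monocyte-like cells by 0.72 on the log2 scale (SE 0.13, adjusted p = 8.2e-05), while alveolar macrophage-like cells were below them (log2 difference -0.81, SE 0.12, adjusted p = 4.3e-06). Insig1 did not pass between alveolar macrophage-like and monocyte-like cells (log2 difference -0.10, SE 0.12, adjusted p = 0.45).

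The 18 sterol synthesis enzymes also did not move as a block between cell classes. Summed over the 18, the level was 630.4, 598.9, 769.0 and 770.1 CPM in alveolar macrophage-like cells, 539.0, 504.9, 356.0 and 442.8 in monocyte-like cells, 439.7, 573.6, 798.2 and 383.8 in dendritic-like cells, 267.2, 262.0, 288.7 and 240.2 in B-like cells, and 241.6, 239.0, 223.3 and 227.7 in T-like cells. Alveolar macrophage-like cells exceeded monocyte-like cells most for Mvd, the mevalonate diphosphate decarboxylase (77.4, 79.8, 94.1 and 95.1 CPM against 24.8, 19.2, 22.0 and 19.6; log2 difference 1.82, SE 0.15, adjusted p = 7.7e-10). Dhcr7, the last reductase of the chain, measured 36.2, 29.5, 35.2 and 37.2 CPM against 12.6, 6.89, 7.09 and 7.78 (log2 difference 1.82, SE 0.14, adjusted p = 1.3e-10). Lss, the lanosterol synthase, followed at 1.70 (SE 0.26, adjusted p = 6.7e-06). Msmo1, the methylsterol monooxygenase, and Sc5d, the sterol desaturase, were lower than in monocyte-like cells, at log2 differences of -0.40 (SE 0.15, adjusted p = 0.019) and -0.81 (SE 0.21, adjusted p = 0.0017). Acat2 has a near-identical neighbour, Acat3, and Fdps has processed copies, so the counts of these 2 genes are less certain than the others.

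Neutrophil-like cells, small and shallow at median depths of 2962 to 3329 UMIs, held 0 UMIs of Lss and Nsdhl in all 4 libraries, which allows a level of up to 6.55, 8.70, 2.38 and 3.46 CPM by 3 counts, and 0 to 1.15 CPM of the squalene epoxidase gene Sqle. Sc5d was nevertheless higher there than in any other class by mean, at 72.1, 40.6, 74.6 and 70.3 CPM, and overlapped with type 2 innate lymphoid-like cells. Pmvk, the phosphomevalonate kinase, measured 41.5, 92.8, 73.1 and 65.7 CPM in neutrophil-like cells. In T-like cells it was 9.21 to 11.7 CPM.

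The promoters of these enzymes are known to carry binding sites for SREBP and for its partner NF-Y, which reads CCAAT. RefSeq promoter sequences (GRCm38.p6) were matched for 25 of the 32 genes, and the 250 bases upstream of the start were searched on both strands. The letters TCACNCCAC of the classical sterol response element occurred in 1 of the 25, Hmgcs1 (the HMG-CoA synthase), and in 1.05% of all 32851 promoters. Some genes have more than 1 promoter, so matches were counted both by promoter and by gene. CCAAT occurred in 21 of the 31 promoters of the 25 genes, and in 33.8% of all promoters. By gene, with a match in any of its promoters, it occurred in 20 of the 25 and in 14 of the 15 matched synthesis enzymes, against 37.5% of all 27025 genes and 40.2% of the 7357 genes with at least 1000 UMIs here. GGGCGG, the GC box, occurred in 23 of the 31 promoters and 32.7% of all promoters. By gene it occurred in 21 of the 25, against 35.4% of all genes and 65.6% of the expressed genes. The windows shown are Hmgcs1, which holds the sterol response letters and 3 CCAAT boxes, Mvd, the enzyme highest in alveolar macrophage-like cells, and the exporter Abca1, which holds no CCAAT. Capitals mark TCACNCCAC and CCAAT on either strand, and each run reads 5′ to 3′ on the strand of the gene.
Hmgcs1, chr13:119690101-119690350, plus strand: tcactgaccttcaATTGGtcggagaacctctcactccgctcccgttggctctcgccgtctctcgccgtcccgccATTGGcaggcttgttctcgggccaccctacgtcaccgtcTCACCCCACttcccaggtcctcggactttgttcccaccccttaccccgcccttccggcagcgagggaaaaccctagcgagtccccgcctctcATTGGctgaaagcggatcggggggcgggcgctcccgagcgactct
Mvd, chr8:122443423-122443672, minus strand: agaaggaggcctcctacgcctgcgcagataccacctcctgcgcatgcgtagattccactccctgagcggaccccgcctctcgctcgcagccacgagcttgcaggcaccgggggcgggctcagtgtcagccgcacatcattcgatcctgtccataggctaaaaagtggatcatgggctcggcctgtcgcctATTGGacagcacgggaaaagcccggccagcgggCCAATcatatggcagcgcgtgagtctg
Abca1, chr4:53159896-53160145, minus strand: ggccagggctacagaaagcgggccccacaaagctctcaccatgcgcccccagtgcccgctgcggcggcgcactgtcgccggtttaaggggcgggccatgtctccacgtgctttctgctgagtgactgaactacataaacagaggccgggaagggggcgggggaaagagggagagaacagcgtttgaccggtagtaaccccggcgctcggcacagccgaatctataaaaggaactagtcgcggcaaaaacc
A match of letters is a description of the window and not a measured binding site.

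Dendritic-like cells had 9 of the 32 genes higher and 8 lower than monocyte-like cells, where 27.2% and 26.9% of all genes were called, and the median log2 difference was 0.36 against -0.01 for all genes. Besides Srebf2, the higher genes included Idi1, the isopentenyl diphosphate isomerase (log2 difference 1.26, SE 0.31, adjusted p = 0.0017), and Fasn, the fatty acid synthase (1.32, SE 0.22, adjusted p = 3.0e-05). The lower genes were led by Plin2 (-2.50, SE 0.13, adjusted p = 6.2e-13) and Abca1. Without the Papain-WT library the count of higher genes was 4.

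B-like and T-like cells differed in single genes rather than as a set, with 8 genes higher and 9 lower in B-like cells, near the 27.9% and 25.9% of all genes. The 9 lower genes were 4 without DPBS-WT, without DPBS-KO or without Papain-KO. Median differences were 0.02 for the 32 and for all genes. Scd1, the stearoyl-CoA desaturase that makes monounsaturated from saturated fatty acids, measured 273.7, 402.8, 389.7 and 330.1 CPM in B-like cells and 1.504, 1.86, 1.73 and 1.74 CPM in T-like cells. The log2 difference was 7.52 (SE 0.28, adjusted p = 1.8e-15). A UMI of Scd1 was found in 59.9%, 73.2%, 77.3% and 74.8% of B-like cells and in 0.874% to 1.22% of T-like cells, although the T-like cells were counted more deeply. Whether the low share in T-like cells reflects expression was not tested. The highest count in 1 B-like cell was 23 of 4694 UMIs. Scd1 lies at 44394455 to 44407879 on the minus strand of chromosome 19. Its close relative Scd2 measured 11.2, 11.5, 20.3 and 12.6 CPM in B-like cells and 6.87 to 10.9 in T-like cells, and the difference did not pass (log2 difference 0.51, SE 0.25, adjusted p = 0.090). Mvk, the mevalonate kinase, was lower in B-like cells (log2 difference -1.42, SE 0.17, adjusted p = 3.5e-07), Pmvk, the next enzyme of the chain, was higher (1.31, SE 0.15, adjusted p = 1.2e-07), and Cd36 was higher (2.38, SE 0.33, adjusted p = 3.0e-06) at 9.54 to 12.2 against 1.33 to 2.34 CPM.

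In alveolar macrophage-like cells, most sterol synthesis enzymes were higher, and Lpl, Plin2 and Abcg1 lower, in both papain libraries than in the DPBS library of the same genotype. Cd36 did not share this, at 339.5 CPM in DPBS-WT and 344.3 in Papain-WT, and Abca1 in WT stood near 0. The summed log2 ratio of the 18 enzymes was, for WT, 0.29 (95% counting interval 0.25 to 0.32) and, for KO, 0.36 (0.32 to 0.40). With cells clustered without integration, the WT ratio was 0.16. That clustering left unnamed a cluster led by Rnase2a and Mmp12, which scored for both alveolar and interstitial macrophage markers. It had 21, 85, 439 and 41 cells in the 4 libraries, and its part in the WT ratio was not tested. By single enzyme in the main classes, the ratio was above 0 for 14 of 18 in WT, with a median of 0.35 against -0.05 for all genes. It was above 0 for 17 of 18 in KO, with a median of 0.45 against 0.00. The same 14 enzymes were above 0 in both genotypes, whose ratios share no library, where 22.6% of all genes were. The exceptions were Mvk, Ebp and Dhcr7, which were above 0 in KO alone, and Nsdhl, below 0 in both.

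Few of these shifts were large. By the rule of at least 1.5-fold, 2 of the 32 genes were higher and 0 lower in WT, where 4.24% of all genes were higher and 3.26% lower, and 4 were higher and 2 lower in KO, against 3.69% and 2.20%. With TMM scaling 4 were higher in WT. Idi1 measured 33.5, 31.2, 52.1 and 45.9 CPM, with log2 ratios of papain over DPBS of 0.64 in WT and 0.56 in KO (-0.04 in KO within cluster 8). Cyp51, the lanosterol demethylase, measured 47.4, 44.9, 70.0 and 70.7 CPM (0.56 and 0.66). Sqle measured 18.3, 15.5, 26.4 and 24.6 CPM (0.53 and 0.67). In all 3 genes both papain values lay above both DPBS values. Each was named for a papain over DPBS ratio past 1.5-fold in WT or KO, so this order was partly fixed by the choice. Acat2 (11.6, 10.6, 12.1 and 16.3 CPM) and Tm7sf2, a sterol reductase (2.98, 2.96, 4.13 and 5.24 CPM), passed 1.5-fold in KO.

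Abca1 and Scd1 had unlike ratios in the 2 genotypes in these cells, a difference that 1 library per group cannot test. Abca1 measured 76.2, 111.8, 74.1 and 54.2 CPM, so papain over DPBS was -0.04 in WT and -1.04 (-1.18 to -0.92) in KO. Scd1 measured 19.6, 28.8, 34.5 and 15.3 CPM, with ratios of 0.81 (0.64 to 0.99) and -0.92 (-1.17 to -0.67). Within the largest alveolar cluster, cluster 2, Scd1 measured 22.6, 33.3, 36.6 and 18.2 CPM, the same order of libraries. Scd2 measured 45.19, 51.7, 56.1 and 35.4 CPM and was lower in Papain-KO than in Papain-WT (-0.66, -0.84 to -0.49). Lpl, Plin2 and Abcg1 were smaller shifts named after their values were seen: papain over DPBS was -0.38 and -0.24 for Lpl, -0.35 and -0.33 for Plin2 and -0.34 and -0.26 for Abcg1 in WT and KO. For these 3 genes as well, both papain values lay below both DPBS values. Of all genes, 34.7% were lower in both genotypes.

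Between genotypes, for the sum of 18, the DPBS libraries gave a KO over WT ratio of -0.07 (-0.11 to -0.04), and the papain libraries gave 0.00 (-0.04 to 0.04). The 2 largest clusters differed in sign. With DPBS, KO over WT was -0.18 (-0.22 to -0.14) in cluster 2 and 0.25 (0.19 to 0.31) in cluster 8, and with papain it was 0.03 and -0.12. No member passed 1.5-fold in DPBS, where 1.41% and 1.88% of all genes were higher and lower, and 0 higher and 2 lower (Scd1 and Scd2) did in papain, against 2.82% and 2.83%. Other measures differed between the libraries of this class. All 10 alveolar macrophage markers were present in each library, and their sum was 19590, 20550, 40360 and 21280 CPM, carried by Chil3 at 11990, 13080, 33240 and 13730 CPM. Macrophage activation genes summed to 2368, 1905, 3094 and 2611 CPM, cell cycle genes to 487.9, 464.9, 362.6 and 349.0 CPM, and stress genes to 7788, 5718, 5773 and 6079 CPM. Of these sums, cell cycle genes were lower and activation genes higher with papain in both genotypes, whereas the marker sum was far higher and the stress genes were lower with papain in WT alone. The part of these in the result was not tested. The papain over DPBS ratio of the sum was uneven over subclusters. In WT it was 0.24 in cluster 2 and 0.43 in cluster 8, and in KO 0.45 and 0.06.

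**Figure D3:**
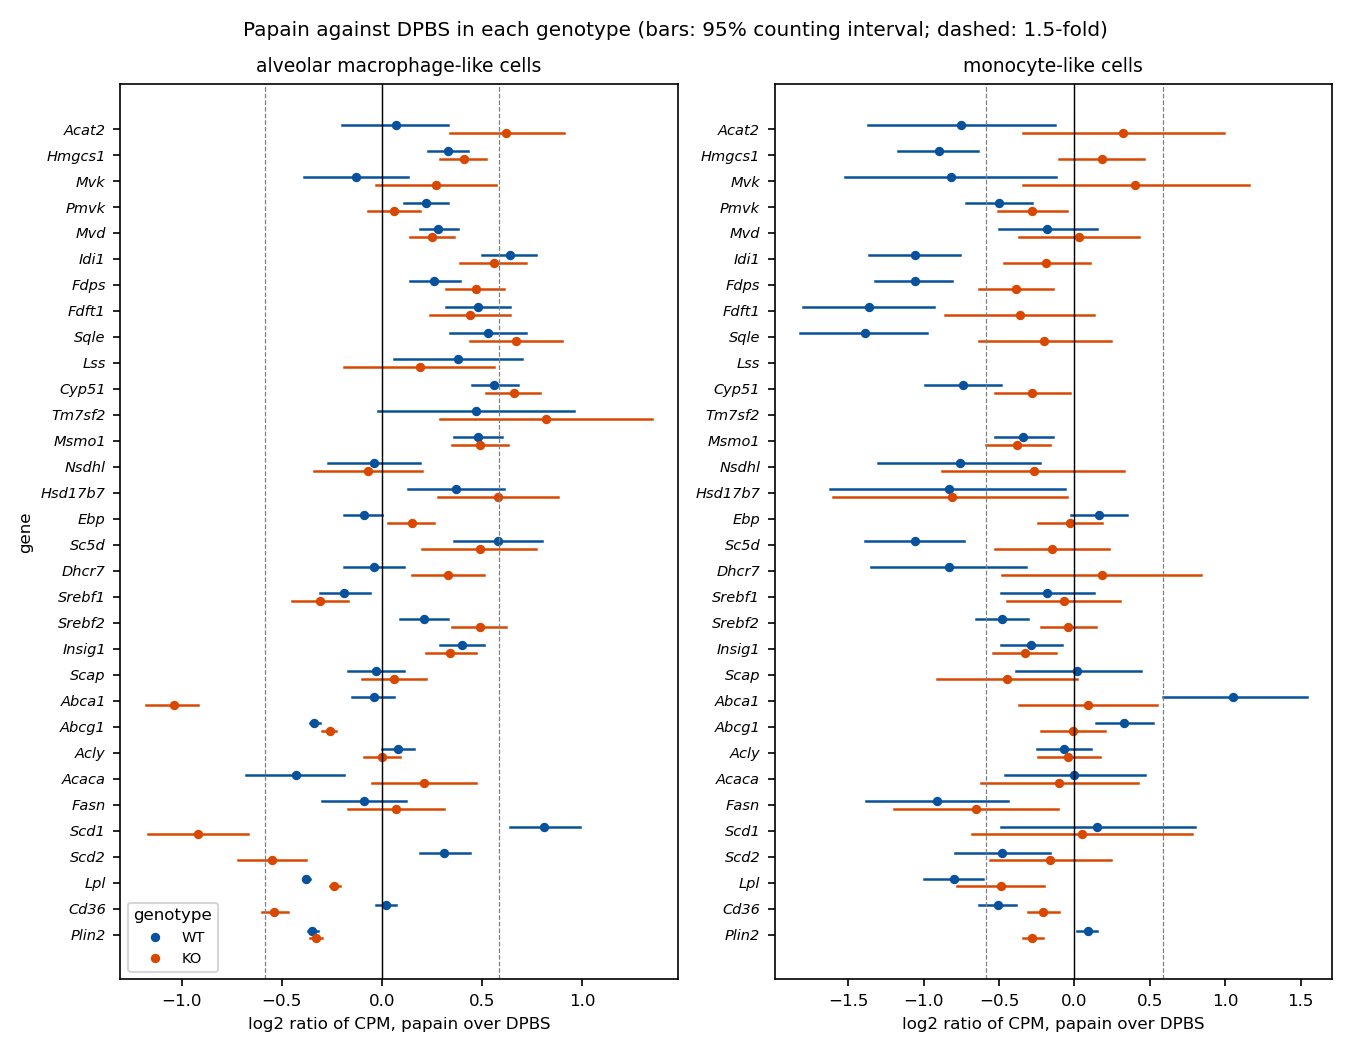
Log2 ratio of CPM, papain over DPBS, for each gene in alveolar macrophage-like cells (left) and monocyte-like cells (right), in WT (blue) and KO (orange); bars are 95% counting intervals, dashed lines mark 1.5-fold, and genes under 50 UMIs in a comparison are left out. Most sterol synthesis enzymes sit right of 0 in the left panel in both genotypes, and left of 0 in WT in the right panel.

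Monocyte-like cells showed the opposite sign. The 18 enzymes summed to 539.0, 504.9, 356.0 and 442.8 CPM, which gave a papain over DPBS log2 ratio of -0.60 (-0.67 to -0.53) for WT mice and of -0.19 (-0.27 to -0.11) for KO mice. In WT, 12 of the 16 enzymes with at least 50 UMIs were lower by 1.5-fold, and of 30 measurable genes of the set 14 were lower and 1 higher, where 2.52% and 4.69% of all genes were. In KO 2 were lower and 0 higher, against 1.64% and 3.04%. The 10 enzymes below 0 in both genotypes compare with 21.7% of all genes.

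The largest WT ratios were those of Sqle (23.7, 17.4, 9.01 and 15.2 CPM, ratio -1.39) and Fdft1, the squalene synthase (21.6, 14.3, 8.41 and 11.1 CPM, ratio -1.36). Fdps, the farnesyl diphosphate synthase (54.6, 58.0, 26.2 and 44.4 CPM), Idi1 (39.7, 40.2, 18.99 and 35.3 CPM) and Sc5d (32, 22.3, 15.4 and 20.1 CPM) each stood at -1.06. Hmgcs1, which makes the HMG-CoA of the mevalonate route, stood at -0.90 and Fasn at -0.91. For each of the 5 enzymes with values given here the Papain-WT library was the lowest of the 4. These 5 were named for a low ratio of Papain-WT to DPBS-WT, so this rank was partly fixed by the choice. Abca1 was the gene past 1.5-fold in the other direction, at 8.85, 14.1, 18.4 and 15.0 CPM (ratio 1.05 in WT, 0.59 to 1.54).

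Monocytes of the 2 kinds differed. In the classical cluster the sum of the enzymes was 638.2, 602.4, 385.8 and 530.8 CPM, with ratios of -0.73 in WT and -0.18 in KO. In the nonclassical cluster it was 354.0, 344.2, 297.9 and 302.7 CPM, with ratios of -0.25 and -0.19, and there Hmgcs1 and Fasn were higher in Papain-WT than in DPBS-WT (0.39 and 0.28). Both clusters were present in like numbers, 347, 288, 443 and 270 classical and 289, 279, 446 and 281 nonclassical cells.

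Between genotypes, the ratio of KO over WT for the sum was -0.09 (-0.17 to -0.02) with DPBS, whereas with papain it was 0.31 (0.24 to 0.39). In DPBS 1 gene was higher, or 2 with TMM scaling, and 3 lower (3.80% and 5.93% of all genes). Lpl was among the lower ones at 85.4 CPM for WT against 42.6 for KO (-1.0, -1.23 to -0.78), and Dhcr7 at 12.6 against 6.89 CPM (-0.87, -1.48 to -0.29). In papain 7 were higher and 1 lower (1.75% and 4.69%), with Idi1 at 0.90 (0.59 to 1.21) and Cd36 at 0.85 (0.74 to 0.96). Stress genes summed to 9923, 8278, 10060 and 10660 CPM in this class, alveolar macrophage markers to 1031, 1015, 1273 and 839.4, and neutrophil markers to 123.7, 145.9, 221.3 and 197.6. Their part was not tested.

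Of the 5 classes compared, dendritic-like cells had the widest differences in the sum and the fewest cells. The 18 enzymes summed to 439.7, 573.6, 798.2 and 383.8 CPM, high in Papain-WT and low in Papain-KO. The papain over DPBS ratio stood at 0.86 (0.74 to 0.98) for WT and at -0.58 (-0.72 to -0.43) for KO. The ratio of KO over WT stood at 0.38 (0.23 to 0.53) with DPBS and at -1.06 (-1.18 to -0.94) with papain. With cells clustered without integration, KO over WT with DPBS turned to -0.22, and papain over DPBS in KO was -0.29. In WT 11 of 14 measurable enzymes were higher by 1.5-fold, and of 27 measurable genes of the set 13 were higher and 0 lower (8.28% and 5.99% of all genes). In KO, 0 of 21 were higher and 6 lower (12% and 3.67%), or 10 lower with TMM scaling. In DPBS 5 of 21 were higher and 2 lower in KO than in WT (4.24% and 11.5%), and in papain 1 of 27 was higher and 16 lower (5.81% and 8.49%).

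Idi1 measured 59.2, 98.3, 131.5 and 28.7 CPM, from 91, 139, 422 and 56 UMIs. Sqle measured 9.76, 26.2, 32.7 and 10.8 CPM, and Fdps 50.7, 64.4, 96.3 and 32.3. Fdft1 measured 14.3, 24.8, 29.0 and 11.3 CPM and Mvd 15.0, 12.7, 36.8 and 11.8. In all 5 Papain-WT was the highest library, and DPBS-KO was the next in each but Mvd. All 5 were named for a large difference between Papain-KO and Papain-WT, so the rank of Papain-WT was partly fixed by the choice. The desaturases differed as well, with Scd1 at 5.20, 15.6, 57.6 and 18.4 CPM and Scd2 at 20.8, 14.9, 66.4 and 18.96. A single cell held 49 of the 185 Scd1 UMIs of Papain-WT. The share of dendritic-like cells with a UMI of Scd1 was 7.61%, 13.8%, 22.0% and 21.7% in the 4 libraries, so it was alike in both papain libraries.

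The class joins 3 clusters. Cluster 24, with mature dendritic cell genes such as Ccr7, Fscn1 and Ccl22, had 17, 12, 48 and 10 cells and held the highest enzyme sums of all clusters described here, 877.2, 1061, 1512 and 944.3 CPM. Idi1 there measured 227.3, 466.5, 440.3 and 169.3 CPM, and Scd1 203.1 CPM in Papain-WT from 131 UMIs against 0 UMIs in DPBS-WT, which allows up to 13.6 CPM. Cluster 19, with type 2 dendritic genes such as Cd209a, held sums of 372.8, 617.9, 653.3 and 344.5 CPM, and cluster 23, with type 1 genes such as Clec9a, 353.6, 403.7, 537.0 and 322.8. The order of the 4 libraries for the sum was the same in clusters 19 and 23. Without cluster 24, KO over WT in papain was -0.88. Scd1 was not alike in the 3: in cluster 23 it was higher in Papain-KO than in Papain-WT (15.5 against 7.88 CPM, from 11 and 6 UMIs).

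Several other values moved across these dendritic-like cells. Mature dendritic cell markers, 7 of 7 present in each library, summed to 3005, 3339, 4843 and 2300 CPM, alveolar macrophage markers to 203.0, 294.2, 480.1 and 164.0, cell cycle genes to 526.9, 340.9, 634.9 and 809.1, T markers to 292.1, 97.6, 119.0 and 247.5, and stress genes to 17460, 8892, 10380 and 10700. As sums, the mature dendritic and alveolar macrophage markers had the same order of libraries as the enzyme sum. Of the 10 alveolar macrophage markers 8 had UMIs in every library. Among the mature markers only Ccl22 (922.4, 996.6, 1146 and 538.0 CPM) had this order singly. Ccl17 measured 680.4, 1386, 2133 and 992.0 CPM, with DPBS-WT and not Papain-KO the lowest. Ccr7 (740.3, 575.0, 872.0 and 436.6 CPM) and Fscn1 (413.7, 181.1, 234.0 and 189.6 CPM), for example, were higher in DPBS-WT than in DPBS-KO. Dgat1, a triglyceride synthesis gene outside the set, measured 28.6, 45.3, 56.1 and 29.2 CPM, with the same 2 libraries low as for the enzyme sum. Median depth was 16144, 15520, 16594.5 and 20376.5 UMIs per cell. Their part in the result was not tested.

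**Figure D4:**
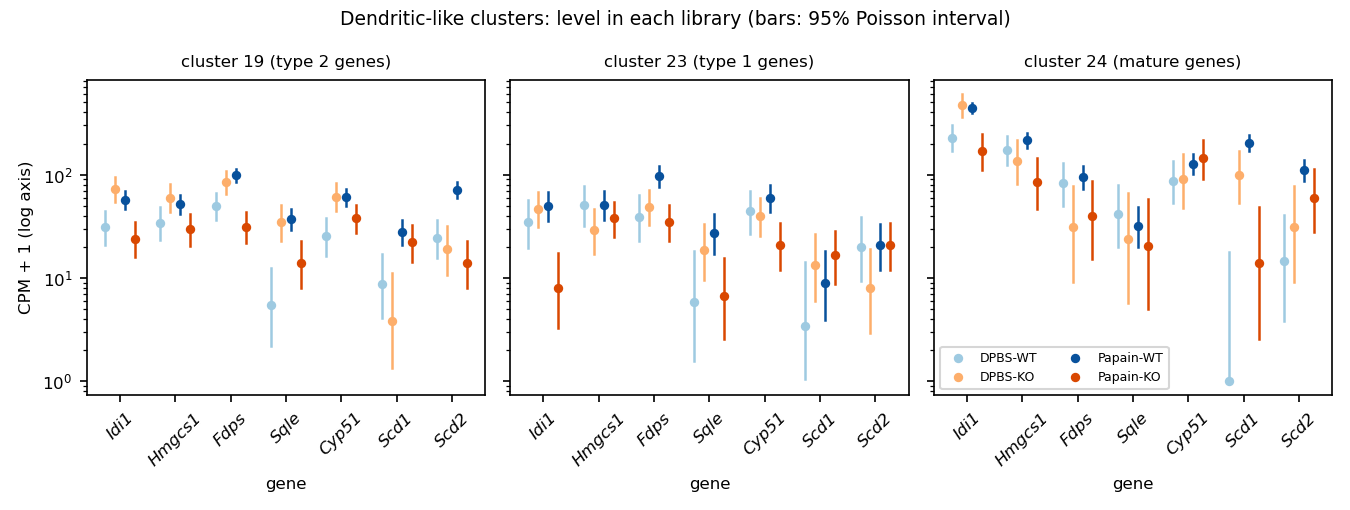
Level of 7 genes in the 3 dendritic-like clusters, with 1 point per library on a log axis of CPM + 1 and 95% Poisson intervals. Idi1 is highest in cluster 24 in each library, Papain-KO is the lowest library for Idi1 in all 3 clusters, and Scd2 of Papain-WT is above the other libraries in clusters 19 and 24 but not in cluster 23.

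Differences in B-like cells were smaller. The enzymes summed to 267.2, 262.0, 288.7 and 240.2 CPM, with papain over DPBS at 0.11 (0.04 to 0.19) for WT and at -0.13 (-0.21 to -0.04) for KO. With DPBS, KO over WT stood at -0.03, and with papain it stood at -0.27 (-0.34 to -0.19). Within the 3 clusters of the class the WT papain ratio was 0.03 (-0.09 to 0.15) in cluster 0, 0.04 (-0.08 to 0.17) in cluster 1 and -0.13 (-0.29 to 0.03) in cluster 13. Each interval includes 0, and those of clusters 0 and 1 also include the 0.11 of the class. Cluster 13, led by Dnase1l3 and Ly6a, held the highest enzyme sums of the 3 in each library, 361.3, 306.5, 330.5 and 285.6 CPM, and had 115, 80, 260 and 161 cells. In WT 4 of 31 genes of the set were higher and 1 lower (6.22% and 2.47% of all genes), and in KO 0 of 30 were higher and 2 lower (2.60% and 1.30%). KO over WT gave 0 higher and 0 lower in DPBS (2.89% and 3.20%) and 0 higher and 5 lower in papain (1.70% and 3.72%). The 4 genes higher in WT with papain were Mvd (4.52 to 7.06 CPM), Scd2 (11.2 to 20.3), Fasn (14.5 to 22.1) and Acaca, the acetyl-CoA carboxylase (8.64 to 13.1). Among cells under 5% mitochondrial UMIs the Fasn ratio was -0.01. The 5 lower in Papain-KO than in Papain-WT were Idi1 (-0.71), Fasn (-0.70), Scd2 (-0.69), Cyp51 (-0.59) and Sqle (-0.59). Fatty acid synthesis genes summed to 354.6, 477.0, 493.4 and 404.7 CPM, most of it Scd1, and DPBS-WT was the lowest library.

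Scd1 differed between the B-like clusters as well as between the libraries. In cluster 0 it measured 404.7, 474.8, 555.6 and 440.9 CPM and in cluster 1 197.4, 280.5, 269.6 and 221.4. DPBS-WT had 1325 of its B-like cells in cluster 1 and 785 in cluster 0, and the other libraries had more cells in cluster 0 than in cluster 1. In both clusters DPBS-WT was still the lowest. Lpl in B-like cells measured 12.6 CPM with DPBS and 4.23 with papain in WT, and 9.45 and 3.74 in KO. In T-like cells it measured 9.11 and 5.51 in WT and 6.29 and 3.38 in KO. Alveolar macrophage-like cells, the main source of Lpl, made up 18.8%, 21.6%, 12.2% and 9.89% of the cells of the 4 libraries. That share was lower in both papain libraries, and it was higher in DPBS-KO than in DPBS-WT. These cells held 73732, 55289, 32984 and 21910 UMIs of Lpl. The whole libraries held 75675956, 56430211, 74536080 and 53854420 UMIs of all genes. The part of macrophage RNA in the lymphocyte values was not tested.

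T-like cells, in which Ift20 was deleted, had an enzyme sum of 241.6, 239.0, 223.3 and 227.7 CPM in the clusters that could be named. The genotype ratio, KO over WT, stood at -0.02 (-0.10 to 0.07) with DPBS and at 0.03 (-0.06 to 0.12) with papain. The treatment ratio, papain over DPBS, stood at -0.11 (-0.20 to -0.03) for WT and at -0.07 (-0.16 to 0.02) for KO. With KO over WT, 2 of 28 genes were higher and 2 lower in DPBS (3.64% and 4.29% of all genes), among them Cyp51 at 12.9 CPM for WT against 19.9 for KO (0.63) and Scd2 at 10.9 against 6.87 CPM (-0.67). In papain 0 of 30 were higher and 1 lower (1.24% and 4.32%), the 1 being Lpl. Papain over DPBS gave 0 higher and 1 lower in WT (4.41% and 1.75%) and 0 higher and 2 lower in KO (2.25% and 1.79%), all of them Lpl or Plin2. Both genes were highest in alveolar macrophage-like cells, and the part of RNA from those cells in the T-like values was not tested. The class left out T lineage clusters that could not be named. Cluster 11, led by Foxp3, Ctla4 and Gata3, held enzyme sums of 395.3, 348.7, 466.5 and 424.7 CPM, and the dividing cluster 18, with Mki67 in 96.0% of cells, held 654.3, 550.3, 594.3 and 533.3 CPM. Both were above the named T-like class in every library, as was cluster 21, led by Il17a, at 462.5, 443.1, 541.5 and 386.1 CPM. Cluster 9, led by Ccl5, had 1110 cells with Cd3e in 97.1% of them and was the largest of those left out. Its sums were 213.6, 227.2, 225.5 and 208.7 CPM, above the named class in Papain-WT alone. When every cluster with Cd3e in at least 80% of cells was joined, papain over DPBS turned to 0.15 in WT and 0.08 in KO, and KO over WT was -0.16 with DPBS and -0.23 with papain. Cluster 11 had 177 cells in DPBS-WT and 411 in Papain-WT.

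**Figure D5:**
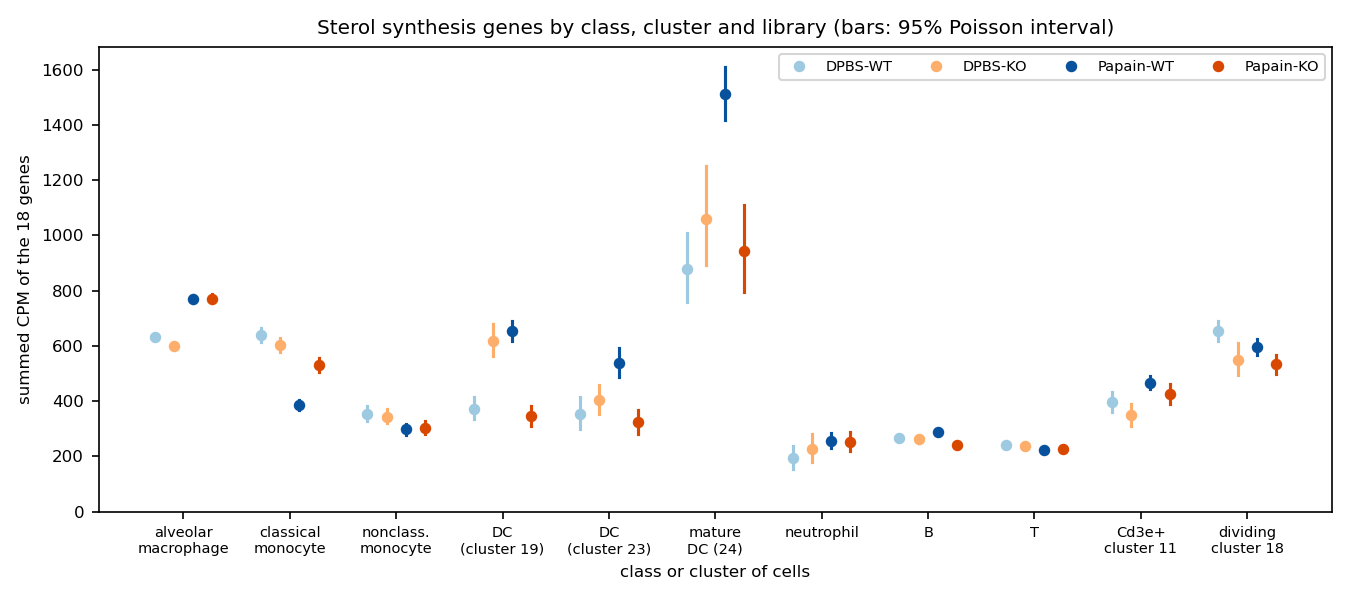
Summed level of the 18 sterol synthesis enzymes in classes and clusters of cells, with 1 point per library and 95% Poisson intervals. Alveolar macrophages are higher in both papain libraries, classical monocytes are lowest in Papain-WT, the mature dendritic cluster is highest of all, and B-like and T-like cells stay near 223.3 to 288.7 CPM.

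A list of 26 other genes of sterol and lipid handling was read in the same way, with shares over all genes given in parentheses. In alveolar macrophage-like cells 2 of 25 measurable genes were higher and 1 lower by 1.5-fold with papain in WT (4.24% and 3.26%), and 2 were higher and 1 lower in KO (3.69% and 2.20%). Msr1, a scavenger receptor, was higher in both, at 6.04, 5.97, 19.4 and 9.11 CPM. Fabp5, a fatty acid binding protein, was higher in WT alone, at 641.7 against 1131 CPM, and Stard4, a cholesterol carrier, was higher in KO, at 14.5 against 22.9. In monocyte-like cells 1 of 23 was higher in WT, Dgat2 (4.69%), and 0 of 22 in KO (3.04%). In dendritic-like cells 4 of 20 were higher in WT (8.28%) and 2 of 18 lower in KO (3.67%), and Fabp5 measured 346.1, 176.1, 808.4 and 138.9 CPM. In B-like cells 2 of 19 were higher in WT (6.22%) and 3 of 18 lower in KO (1.30%). In T-like cells 4 of 19 were higher in WT (4.41%) and 2 of 18 lower in KO (1.79%). With lists this small, each of these shares rests on few genes.

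Interstitial macrophage-like cells are given by value only. Their 77, 114, 282 and 82 cells held alveolar macrophage markers at 2198, 24810, 33900 and 1249 CPM, so their makeup differed between the libraries. Lpl there measured 698.2, 1344, 812.2 and 276.7 CPM and Abcg1 187.0, 519.3, 216.0 and 127.5. Of the 32 genes, Insig1 was highest in this class, at 77.2, 59.7, 82.9 and 69.5 CPM, and overlapped with alveolar macrophage-like cells.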

How the data were processed

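The deposited files hold raw UMI counts per gene and barcode for 4 libraries, made by the authors with Cell Ranger 3.1.0 (per the file headers) on mm10 (per the submitters' processing notes). No other step is stated for these lung libraries in the sources used here. Barcodes with more than 200 genes and under 15% mitochondrial UMIs were kept, and the barcodes with the highest doublet scores (Scanpy 1.11.5, Scrublet) were left out at 0.8% per 1000 barcodes, 275 to 585 per library. Libraries were integrated and clustered with Seurat 5.3.0 on 2000 variable genes, without the 32 genes, with 30 dimensions at resolution 0.8. Clusters were named from a marker list, and those that could not be named were left out.

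UMIs were summed per library and class. Classes were compared with edgeR 4.0.16 (quasi-likelihood test, library as a block, Benjamini-Hochberg over all genes tested, threshold 0.05), which was tested on simulated data. Conditions have 1 library each, so a ratio has an exact 95% counting interval and no test. Ratios use genes with at least 50 UMIs over the 2 libraries. The genes and lists were chosen with earlier results of these data known. All 32 genes are given by level. Between conditions the genes named are those past 1.5-fold whose interval excludes 0, up to 12 per class by size, and any other is named after its values were seen. Alternatives were DESeq2 1.42.0, other size factors, no filter, each library left out, unintegrated clusters, TMM scaling, means over cells, doublets kept, 5% mitochondrial UMIs, no dividing cells and single clusters. UMI counts carry counting error, and intervals cover only that.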

Additional observations from a re-analysis of the deposited data

Results flagged for a closer look

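With 1 library per group, the differences here were not tested. They are given because the papain over DPBS log2 ratio had opposite signs in the 2 genotypes, with 1 library on each side. In dendritic-like cells the sum of the 18 sterol synthesis enzymes had a ratio of 0.86 in WT and -0.58 in KO. Among its enzymes the ratios in WT and KO were 1.15 and -1.78 for Idi1, 0.92 and -1.0 for Fdps, 1.02 and -1.13 for Fdft1, 1.75 and -1.28 for Sqle, and 0.80 and -0.96 for Sc5d. In B-like cells the sum had ratios of 0.11 and -0.13. Within clusters 0, 1 and 13 the WT ratio was 0.03, 0.04 and -0.13, each with an interval that includes 0. The intervals of clusters 0 and 1 also include 0.11. Cluster 13, which held the highest sums, had 115 cells in DPBS-WT and 260 in Papain-WT. In alveolar macrophage-like cells Scd1 had ratios of 0.81 and -0.92.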

How the results depend on the processing

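Each condition has 1 library and each papain or genotype ratio 2, so no alternative replaces a replicate. No paired analysis of conditions was possible because the labels give no replicate numbers that groups share beyond 1 library each. Classes were paired by library, as a block. The number of cells limits the dendritic-like class, with 87 to 186 per library, and depth the neutrophil-like class, with medians of 2962 to 3329 UMIs. Of 538 alternative values for 65 gene results between conditions, 531 kept their sign, but 87 of these lay outside the main counting interval. Most of the 65 were named for their size in these libraries, which every alternative reused, so a kept sign is weak evidence. The cause of the changes below was not tested.

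Papain over DPBS in WT for the enzyme sum of alveolar macrophage-like cells was 0.33 with TMM scaling, 0.34 as a mean over cells, 0.16 without integration, 0.24 at under 5% mitochondrial UMIs, 0.24 within cluster 2 and 0.43 within cluster 8. In KO it was 0.32 without integration, 0.45 in cluster 2 and 0.06 in cluster 8, where Idi1 was -0.04. KO over WT in DPBS was -0.18 in cluster 2 and 0.25 in cluster 8. In papain it was -0.08 with TMM, -0.04 over cells, 0.08 without integration, 0.08 at under 5% mitochondrial UMIs and -0.12 in cluster 8. With TMM, a scaling added after the data were seen for such counts, 4 genes were higher in WT, 2 were higher in KO over WT in the DPBS monocyte-like cells, and 10 were lower with papain in the KO dendritic-like cells.

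For monocyte-like cells, papain over DPBS in WT was -0.73 in cluster 6 and -0.25 in cluster 7, where Fasn was 0.28 and Hmgcs1 0.39. KO over WT in papain was 0.46 and 0.02. For dendritic-like cells, papain over DPBS in WT was 0.72 over cells, 0.71 without integration, 0.59 with doublets kept and 0.60 in cluster 23. In KO it was -0.29 without integration, -0.84 in cluster 19 and -0.32 in cluster 23. KO over WT in DPBS was 0.53 with TMM, -0.22 without integration, 0.22 with doublets kept, 0.57 without dividing cells, 0.73 in cluster 19 and 0.19 in cluster 23. In papain it was -0.94 over cells, -1.22 without integration, -0.92 in cluster 19, -0.73 in cluster 23 and, added after the data were seen, -0.88 without cluster 24. In cluster 23 Scd1 was 0.98 and Scd2 0.00.

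For B-like cells, papain over DPBS in WT was 0.03 in cluster 0, and at under 5% mitochondrial UMIs, which left 160 to 358 cells per library, Fasn was -0.01 and Lpl 0.10. In KO it was -0.22 at under 5% mitochondrial UMIs and -0.24 in cluster 1. KO over WT was -0.15 in cluster 0 and 0.11 in cluster 1 in DPBS, and -0.18 in cluster 1 in papain. For T-like cells, the ratio in WT was -0.26 in cluster 4 and 0.15 over all clusters with Cd3e in 80% of cells, added after the data were seen. In KO it was 0.02 in cluster 3, -0.18 in cluster 4 and 0.08 over those clusters. KO over WT in DPBS was -0.10 in cluster 3, 0.07 in cluster 4 and -0.16 over them, and in papain 0.15 in cluster 4 and -0.23 over them.

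Between classes, leaving out 1 library gave 19 to 21 genes higher and 1 to 4 lower in alveolar macrophage-like over monocyte-like cells, the 1 without DPBS-WT. It gave 24 to 26 and 3 over B-like cells. For dendritic-like over monocyte-like cells it gave 4 to 12 higher, the 4 without Papain-WT, and 6 to 8 lower. For B-like over T-like cells it gave 7 to 8 higher and 4 to 9 lower, the 4 without DPBS-WT, DPBS-KO or Papain-KO. Mvd was higher in dendritic-like than in monocyte-like cells without integration (log2 difference 0.67, adjusted p = 0.041) and -0.04 otherwise.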

Other observations

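Among the other genes of lipid handling, Dgat1, which makes triglyceride, was lower in DPBS-WT and Papain-KO than in DPBS-KO and Papain-WT in each of the 5 classes. It was chosen after its values were seen. In T-like cells it measured 23.6, 52.0, 51.6 and 28.3 CPM, in B-like cells 22.1, 32.2, 38.4 and 20.4, in monocyte-like cells 43.7, 74.3, 64.8 and 52.0, and in alveolar macrophage-like cells 88.7, 113.6, 105.5 and 84.3. The split crosses both genotype and treatment. Elovl6, a fatty acid elongase, measured 11.9, 20.0, 26.6 and 16.7 CPM in T-like cells, with papain over DPBS at 1.16 (0.86 to 1.47) in WT. Elovl5, another elongase, measured 25.3 against 45.1 CPM in the B-like cells of DPBS-WT and Papain-WT. Fabp4 was lower in Papain-KO than in Papain-WT in alveolar macrophage-like cells, at 206.2 against 331.5 CPM.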
